A study of Mus musculus with 6 samples.

Results

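The 10 genes described here encode chaperones, disulfide isomerases and transcription factors of the endoplasmic reticulum (ER) stress pathway: Hspa5, Hsp90b1, Calr, Dnajb9, Pdia3, Pdia4, Pdia6, Xbp1, Atf4 and Ddit3. They were found on the array through the platform annotation, which gave 21 probe sets with one of these symbols alone, out of 22626 probe sets without controls and 12393 named genes. Total lung RNA came from female mice of strain B6.V-Lepob/J, aged 1 month, which lack functional leptin because of a mutation in the leptin gene. Every animal of both groups carried this mutation, and the groups differed in receiving leptin or saline. Each group had 3 arrays (Affymetrix Mouse 430A), each from the lung of 1 animal per the labels, and no source used here gives the dose, the route or the duration of the treatment. The comparison asks how the lung responds to replacement of the hormone.

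Secretory and membrane proteins fold in the ER. When unfolded proteins build up there, sensors in its membrane start the unfolded protein response. One branch splices the Xbp1 messenger RNA, one raises translation of Atf4, which in turn induces Ddit3 (CHOP), and one releases the transcription factor Atf6. Together they induce the chaperones that restore folding. In the lung, alveolar type II cells and airway club cells secrete large amounts of surfactant and other proteins, and plasma cells secrete antibody, so all of them depend on ER folding capacity. The arrays measured transcript levels, and Xbp1 splicing and Atf4 translation were not analysed here.

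The best known DNA element of this response is the ER stress response element, CCAAT and CCACG separated by 9 free bases, to which Atf6 binds together with the factor NF-Y. It is shown as a sequence feature of some of these genes. The genes were chosen as members of this response, so finding its element among them is not an independent result. RefSeq promoter windows of build GRCm38.p6, from 250 bases before the start site to 50 bases from it, were found for all 10 genes. The element was searched on both strands, and its first 5 letters are also the CCAAT motif searched alone. It occurred in the windows of Hspa5, Hsp90b1, Pdia6 and Calr, 4 of the 10 genes, and in 39 of all 32851 windows (0.119%). Each stretch is written 5′ to 3′ on the strand on which the element reads forward, and capitals mark its 10 fixed positions:
Hspa5, chr2:34772020-34772048, plus strand: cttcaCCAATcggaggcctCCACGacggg
Hsp90b1, chr10:86705633-86705661, minus strand: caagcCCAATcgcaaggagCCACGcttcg
Hsp90b1, chr10:86705528-86705556, plus strand: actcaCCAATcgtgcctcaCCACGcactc
Pdia6, chr12:17266486-17266514, plus strand: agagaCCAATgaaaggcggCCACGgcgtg
Calr, chr8:84847070-84847098, plus strand: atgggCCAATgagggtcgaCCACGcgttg
The element lay from 65 to 47 bases before the start site in Hspa5, from 98 to 80 in Pdia6 and from 162 to 144 in Calr, and Hsp90b1 held it at 212 to 194 and again at 107 to 89 bases. With 1 mismatch allowed, the windows of Pdia3, Pdia4 and Ddit3 also matched, which made 7 of 10 genes against 1.50% of all windows:
Pdia3, chr2:121413868-121413896, plus strand: cgcagCCAATcggcggctgCCACActgcg
Pdia4, chr6:47813597-47813625, plus strand: gaccaCCAATcacgggctgCCACTcggtt
Ddit3, chr10:127290697-127290725, minus strand: gcctaCCAATcagaaagcgGCACGctggc
CCAAT alone was in the windows of 9 of the 10 genes, all but Xbp1, and in 37.4% of all windows. None of the 10 windows held the related element of ATTGG and CCACG separated by 1 free base, the Xbp1 motif TGACGTGG or the Atf4 motif TGATGNAA, which were in 0.0365%, 0.676% and 3.97% of all windows. These matches describe the letters of the windows and do not show that a factor binds there.

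Saline replicate 1 differed from all other samples, with correlations to them of 0.438 to 0.447 over the log2 values of all probe sets, against 0.973 to 0.978 among the rest. Its array was kept apart, and the comparison rests on 3 leptin arrays and saline replicates 2 and 3. Values that include it follow those of the 5 arrays. Markers of alveolar type II cells had a median percentile of intensity between 99.87 and 99.91 on those 5 arrays and of 96.1 on saline replicate 1, where their summed intensity was 16927 against 119338 to 138205. Alveolar type I markers had a median percentile of 97.4 to 97.7 on the 5 arrays and 65.4 on saline replicate 1, and club cell markers 99.91 to 99.92 and 98.9. The summed intensity of type I markers was 11551 on saline replicate 1, against 40375 to 47368. That of club cell markers went the other way, at 90624 against 68751 to 76750. Intensities are in arbitrary units and depend on the probes, so levels were compared between arrays and not between probe sets.

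No probe set of these genes passed the test between leptin and saline lungs. On the 5 arrays 18 of the 21 probe sets passed the filter on dim probe sets and were tested, with at least 1 for each of the 10 genes, and 0 of them passed the adjusted threshold (limma, Benjamini-Hochberg adjusted p under 0.05), against 7 of all 15839 tested (0.0442%). With the replicate number as a block those 7 calls fell to 0. At an unadjusted p under 0.05, 1 of the 18 was lower (Xbp1 1420012_at) and 0 were higher, where 1.98% of all probe sets were lower and 2.61% higher. Of the 18, 8 were above and 10 below 0, where 50.2% of all were above, and their median log2 difference was -0.01 against 0.00 for all probe sets tested. The groups did not overlap for 3 of the 18, 2 higher and 1 lower, against 19.6% of all probe sets. A difference of at least 1.5-fold was reached by 0 of the 18 and by 2.15% of all. The rule stated in the series' design text, at least 1.5-fold with p under 0.05 and most pairwise comparisons past that fold, was met by 0 of the 18 and by 0.492% of all. For the brightest tested probe set of each of the 10 genes, the fold of leptin over saline lay between 0.867 and 1.17, and all 10 of the 95% intervals lay between 0.709-fold and 1.42-fold. The adjusted p was 1.00 for each.

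**Figure D1:**
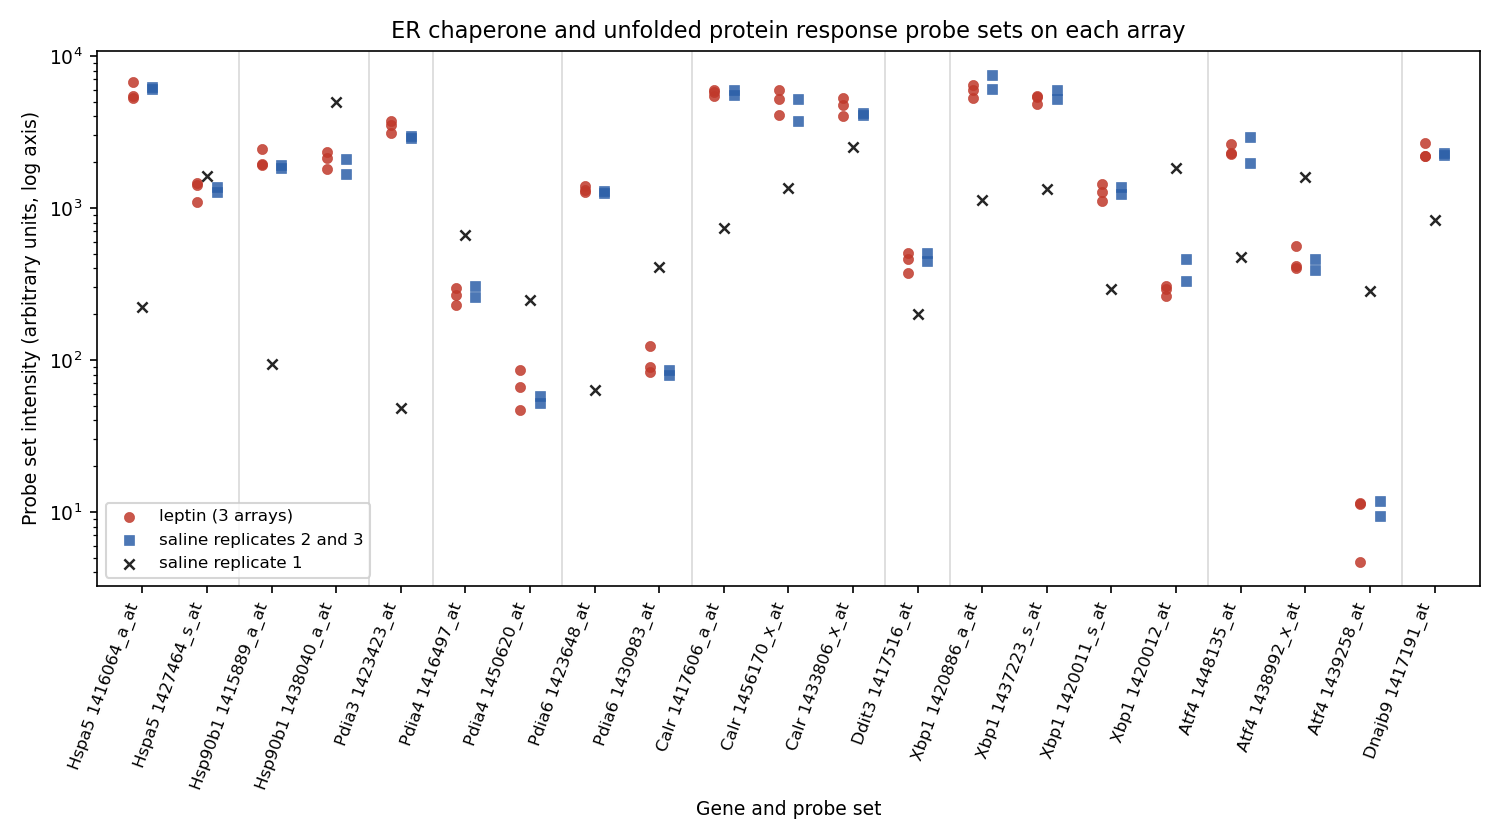
Probe set intensity (arbitrary units, log axis) of the 21 probe sets of the 10 genes on each array, with leptin arrays as circles, saline replicates 2 and 3 as squares and saline replicate 1 as crosses. Circles and squares lie close together for nearly every probe set, and the crosses lie outside their range for all 21.

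Hspa5 encodes BiP, the main ER chaperone, which also holds the stress sensors inactive until unfolded proteins draw it away. Its brighter probe set (1416064_a_at) read 5432, 6740 and 5287 with leptin and 6199 and 6066 in saline lungs 2 and 3, and 222.6 in saline lung 1. Leptin replicate 2 was the highest of the 5 arrays and the other leptin arrays the lowest, so the groups overlapped. The log2 difference was -0.08 ± 0.13 (SE, n = 3 and 2; limma adjusted p = 1.00). The second Hspa5 probe set (1427464_s_at) read 1408, 1091 and 1447 with leptin and 1380 and 1266 with saline, a log2 difference of -0.02 ± 0.15. Here leptin replicate 2 was the lowest, the reverse of the first probe set.

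Hsp90b1 encodes the Hsp90 of the ER, which folds integrins and Toll-like receptors. It read 1917, 1936 and 2449 with leptin and 1832 and 1909 in saline lungs 2 and 3 (1415889_a_at). The leptin arrays were all above both saline arrays, but 2 of them by a margin smaller than the gap between the saline arrays. The log2 difference was 0.16 ± 0.14 (limma adjusted p = 1.00), and it was 0.04 without leptin replicate 3. The second probe set (1438040_a_at) read 2346, 2126 and 1797 with leptin and 2101 and 1663 with saline, with overlapping groups and a log2 difference of 0.15 ± 0.16. Leptin replicate 3, the highest array on the first probe set, was the lowest leptin array on the second.

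Calr encodes calreticulin, a calcium-binding lectin that retains glycoproteins until they are folded. Its probe set 1417606_a_at read 5777, 5417 and 5956 with leptin and 5558 and 5920 with saline, a log2 difference of -0.01 ± 0.11. The other probe sets, 1456170_x_at and 1433806_x_at, bear the suffix that Affymetrix gave to sets with probes shared with other sequences, and stood at 0.19 ± 0.18 and 0.17 ± 0.13. Groups overlapped on all 3. Calr 1456170_x_at varied most of the 18 probe sets within groups, with a standard deviation of 0.30 on the log2 scale, and Calr 1417606_a_at was among the steadiest at 0.07.

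Dnajb9 encodes a J-domain partner that stimulates BiP and is a target of spliced Xbp1. It read 2191, 2195 and 2674 with leptin and 2238 and 2310 with saline, a log2 difference of 0.04 ± 0.13 (limma adjusted p = 1.00). Leptin replicate 3 was the highest array and the other leptin arrays the lowest.

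The protein disulfide isomerases form and rearrange disulfide bonds. Pdia3, which works on glycoproteins with calreticulin, showed the largest positive difference of the 18 probe sets. It read 3508, 3702 and 3106 with leptin, all above the 2865 and 2969 on saline replicates 2 and 3. The log2 difference was 0.23 ± 0.12, or 1.17-fold with a 95% interval from 0.973 to 1.42, and it did not pass the test (limma adjusted p = 1.00). It ranged from 0.18 to 0.30 when any 1 of the 5 arrays was left out. Pdia3 is represented by 1 probe set, so no second measurement of it exists here.

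Pdia6 was the steadiest of the 18 probe sets, with a standard deviation within groups of 0.05 on the log2 scale. It read 1382, 1318 and 1268 with leptin and 1294 and 1246 with saline (1423648_at), a log2 difference of 0.06 ± 0.13. Its second probe set (1430983_at) was too dim to be tested, at 123.5, 82.7 and 90.4 with leptin and 85.6 and 79.4 with saline. Pdia4 read 230.1, 267.3 and 296.7 with leptin and 304.1 and 258.9 with saline (1416497_at), a log2 difference of -0.09 ± 0.18. Its second probe set (1450620_at) was also below the filter, at 85.4, 66.3 and 47.1 with leptin and 52.0 and 58.1 with saline. Groups overlapped in all of these.

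Xbp1 encodes the transcription factor of the splicing branch, which secretory cells need to expand their ER. It had 4 probe sets, all with a log2 difference below 0. The brightest (1420886_a_at) read 6392, 5255 and 5925 with leptin and 7470 and 6070 with saline, a log2 difference of -0.21 ± 0.13 (limma adjusted p = 1.00). Saline replicate 2 was the highest array, and leptin replicate 1 lay between the saline arrays. The next ones (1437223_s_at and 1420011_s_at) stood at -0.10 ± 0.12 and -0.03 ± 0.15.

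The dimmest Xbp1 probe set (1420012_at) showed the largest difference of the 18. It read 264.3, 291.2 and 307.9 with leptin, below both the 458.9 and the 330.4 of saline replicates 2 and 3. The log2 difference was -0.41 ± 0.19 with a 95% interval from -0.82 to -0.004 (limma adjusted p = 1.00), so it did not pass the test. It rested largely on saline replicate 2, without which it was -0.19, and it was -0.64 without saline replicate 3. The annotation names the same accession for this probe set and for 1420011_s_at, whose difference was close to 0.

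Atf4 encodes the transcription factor of the translational branch. Its brightest probe set (1448135_at) read 2256, 2649 and 2307 with leptin and 1985 and 2922 with saline, a log2 difference of -0.01 ± 0.17. The saline arrays were the lowest and the highest of the 5, and the difference was -0.28 without saline replicate 2 and 0.27 without saline replicate 3. The second (1438992_x_at) stood at 0.10 ± 0.19. The third (1439258_at) was at or below 11.8 on all 5 arrays, under the 10th percentile of all values (22.0), and was not tested. Ddit3, which promotes cell death when ER stress persists, read 374.4, 462.3 and 507.5 with leptin and 448.1 and 500.9 with saline, a log2 difference of -0.09 ± 0.17 (limma adjusted p = 1.00). Its lowest and its highest array were both leptin arrays.

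**Figure D2:**
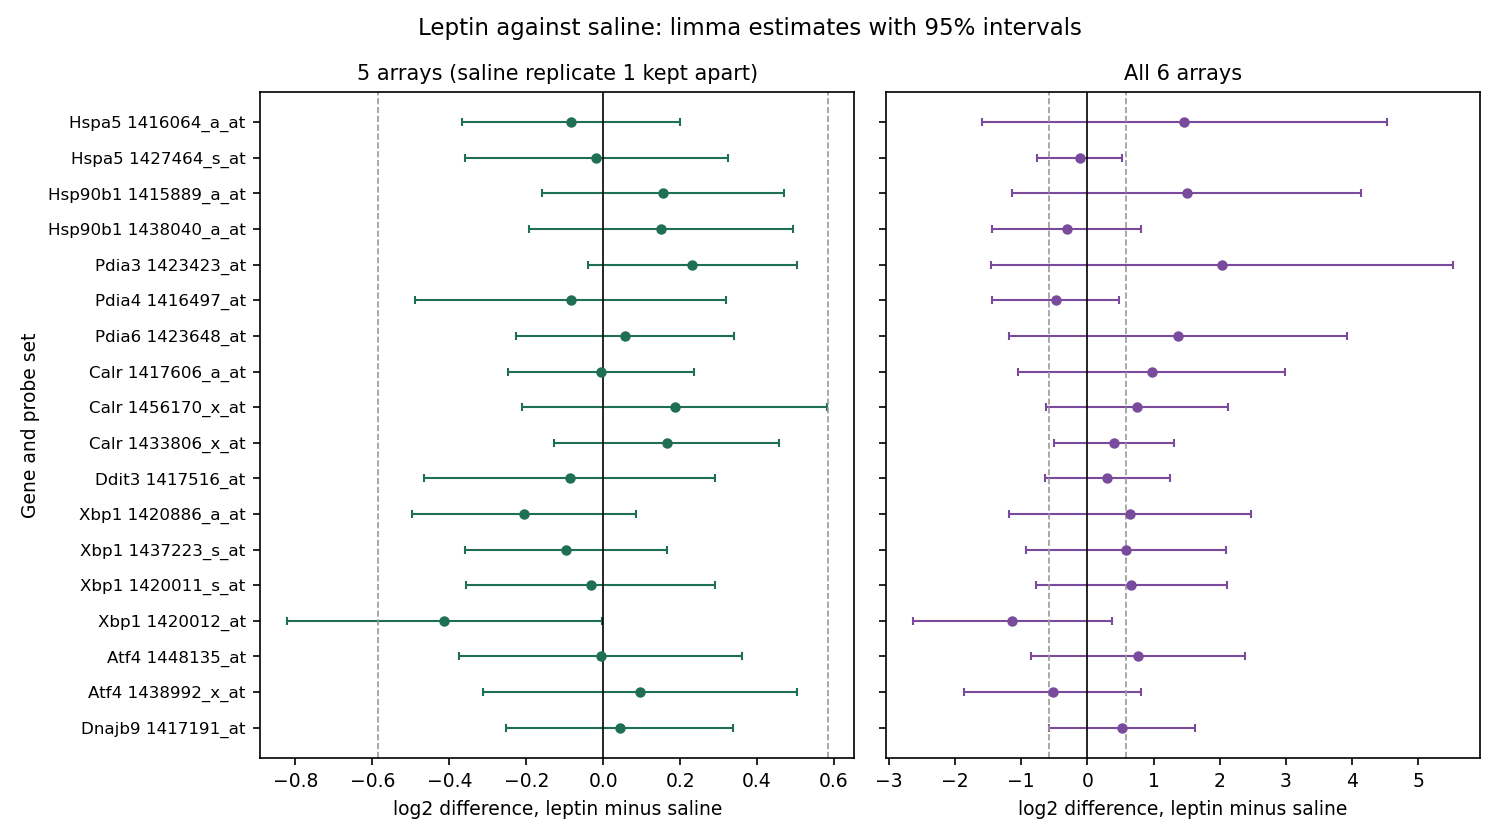
Log2 difference, leptin minus saline, of the 18 tested probe sets (points) with 95% limma intervals (bars), on 5 arrays at left and all 6 at right, on different horizontal scales. Dashed lines mark 1.5-fold in either direction. On 5 arrays 17 of 18 intervals include 0, the exception being Xbp1 1420012_at, and with all 6 arrays each interval is wider, from 1.88 times (Hspa5 1427464_s_at) to 12.8 times (Pdia3).

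The spread between animals was like that of the array as a whole. The median standard deviation within groups was 0.16 on the log2 scale for the 18 probe sets and 0.18 for all probe sets tested. The median deviation of the 18 probe sets from their own means lay between -0.03 and 0.01 on each of the 5 arrays, so no animal had the whole set high or low.

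Saline replicate 1 read outside the range of the other 5 arrays on all 21 probe sets, lower on 13 and higher on 8. Among all 22626 probe sets it was lower than every other array on 33.8% and higher on 54.6%. Direction went with level: in the upper 25% of levels, 71.5% of all probe sets were lower and 19.7% higher on it. Of the 21, 14 were in that upper range, 12 of them lower and 2 higher, and of the 7 below it 1 was lower and 6 were higher. Pdia3 read 47.9 there, 64.8-fold below the median of the other arrays, and the brighter Hspa5, Hsp90b1 and Pdia6 probe sets were 27.2-fold, 20.4-fold and 20.5-fold below theirs. Other probe sets of the same genes went the other way. Hspa5 1427464_s_at was 1.18-fold, Hsp90b1 1438040_a_at 2.36-fold, Pdia6 1430983_at 4.80-fold, Xbp1 1420012_at 5.95-fold and Atf4 1438992_x_at 3.89-fold above the median of the other arrays. Atf4 1439258_at, under the 10th percentile of all values on the other arrays, read 283.7 on it, and no fold is given. Of the 7 genes with several probe sets, 5 had them on both sides, Pdia4 had both above and Calr all 3 below. Probe sets of 1 gene thus disagreed in direction on this array, and its values were not read as levels of these transcripts.

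**Figure D3:**
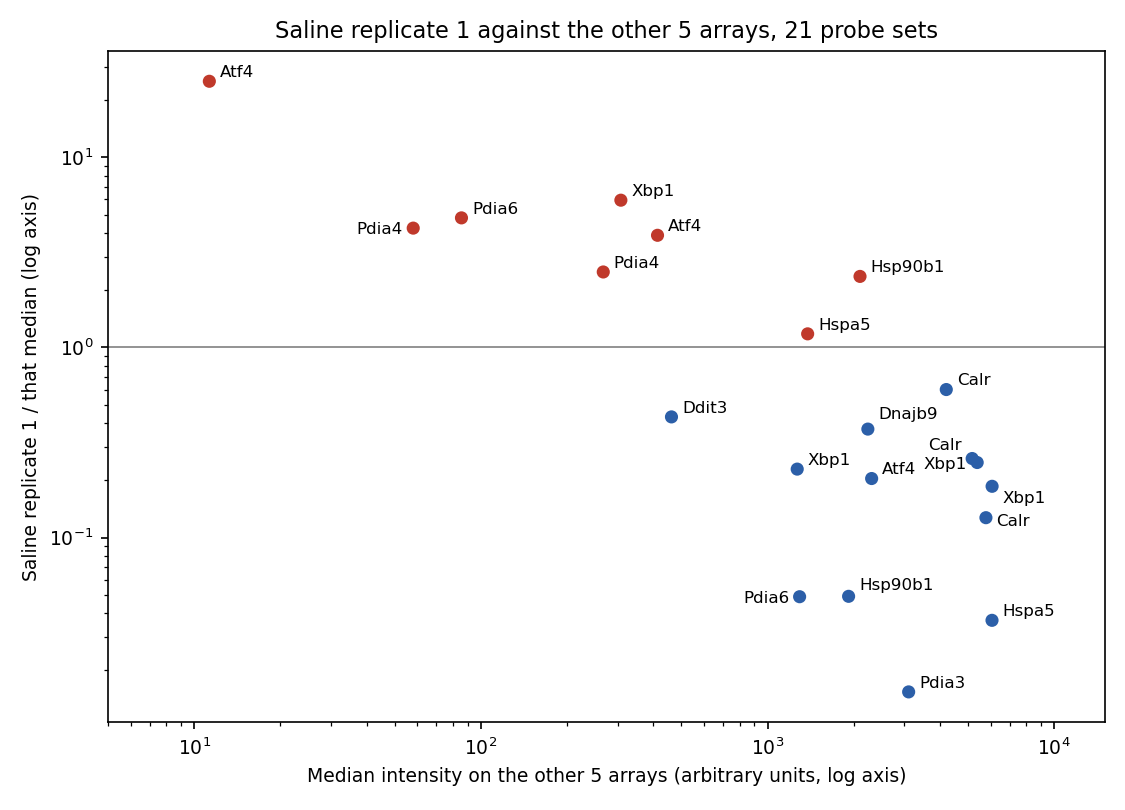
Intensity on saline replicate 1 divided by the median of the other 5 arrays (vertical, log axis) against that median (arbitrary units, log axis), 1 point per probe set of the 10 genes. Of the 21 points, 8 lie above 1 (red) and 13 below (blue), and Hspa5, Hsp90b1, Pdia6, Xbp1 and Atf4 have points on both sides.

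With saline replicate 1 included, 19 probe sets of these genes were tested and 0 passed the adjusted threshold (limma, smallest adjusted p = 0.715), with 0 at an unadjusted p under 0.05. Over all probe sets 0 passed (0%), and 0.385% had an unadjusted p under 0.05. The median log2 difference of the 19 became 0.58, with 13 above and 6 below 0, where 51.3% of all were above, and 10 of the 19 passed 1.5-fold against 36.8% of all. Groups did not overlap for 3 of the 19, against 9.1% of all. Standard errors grew alongside, and Pdia3 stood at 2.03 ± 1.45 and the brighter Hspa5 probe set at 1.47 ± 1.27.

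The wider pathway was described through 5 lists, each gene by its brightest tested probe set on the 5 arrays. In these lists 0 genes passed the adjusted threshold (limma), against 0.0534% of all 9365 genes tested. The list of other ER folding genes, which holds calnexin, the BiP exchange factors and co-chaperones, ER oxidases and further isomerases, had 20 of 20 genes tested. Of these 11 were above and 9 below 0, the median was 0.02 against -0.01 for all genes, and 0 had an unadjusted p under 0.05 against 4.28%. The list ran from Txndc5, a disulfide isomerase, at -0.21 ± 0.14 to Creld2, a secreted ER stress protein, at 0.35 ± 0.20. The ends of each list are named because they are the ends, seen after the values.

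Of the sensors and regulators of the response, 13 of 15 were tested and 11 were below 0, against 51.7% of all genes, with a median of -0.09. None of the 13 had an unadjusted p under 0.05, where 4.28% of all genes did, and groups did not overlap for 3 of 13 against 19.9%. Ern1, the sensor that splices Xbp1, stood at -0.26 ± 0.33, with 227.3, 189.2 and 145.7 with leptin and 359.9 and 138.4 with saline. Mbtps1, a protease that cleaves Atf6, was at the other end at 0.16 ± 0.12.

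The targets of Atf4 and Ddit3 held the widest range, with 21 of 22 listed genes tested, 6 above and 15 below 0, and a median of -0.11. At an unadjusted p under 0.05, 1 was higher and 2 were lower, where 2.26% and 2.02% of all genes were. Ddit4, an inhibitor of mTOR signalling that also answers to glucocorticoids and hypoxia, read 1059, 940.1 and 1304 with leptin and 1892 and 2154 with saline, a log2 difference of -0.87 ± 0.16 (limma adjusted p = 0.166). All leptin arrays were below both saline arrays, and the difference stayed between -1.0 and -0.77 when any 1 array was left out. With saline replicate 1, which read 467.5, it was -0.19.

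Trib3, a pseudokinase that limits Atf4 activity, read 162.5, 209.9 and 190.9 with leptin and 246.2 and 281.5 with saline (1456225_x_at), a log2 difference of -0.45 ± 0.19 without overlap (limma adjusted p = 1.00). Its other probe set (1426065_a_at) stood at -0.02 ± 0.21. Atf3, a stress-induced transcription factor, was on the other side, at 172.6, 192.5 and 148.6 with leptin and 39.2 and 133.7 with saline, a log2 difference of 0.98 ± 0.35 (limma adjusted p = 1.00). It depended on 1 array: without saline replicate 2 it was 0.31, and without saline replicate 3 it was 1.65. With saline replicate 1 included, Trib3 (1456225_x_at) stood at -0.90 and Atf3 at 0.63. The differences of these 3 genes thus had opposite signs, those of Ddit3 and Atf4 were near 0, and none passed the adjusted threshold.

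The ER-associated degradation list had 17 of 18 genes tested, with 10 above and 7 below 0, a median of 0.05 and 0 at an unadjusted p under 0.05 (4.28% of all genes). It ran from Edem3, which trims glycans of proteins due for degradation, at -0.19 ± 0.15 to Man1b1, a mannosidase, at 0.16 ± 0.17. The list of translocation, signal peptide and glycosylation genes had 22 of 24 tested, with 10 above and 12 below 0, a median of -0.01 and likewise 0 at an unadjusted p under 0.05. It ran from Srp9, a subunit of the signal recognition particle, at -0.27 ± 0.16 to Stt3a, a catalytic subunit of oligosaccharyltransferase, at 0.27 ± 0.17. With saline replicate 1 included, the brightest probe set of each gene was picked anew over all 6 arrays. Some genes thus changed probe set, and the shifts of the medians are not those of the added array alone. The medians were 0.18 for the ER folding list, -0.14 for the sensors and regulators and -0.06 for the Atf4 and Ddit3 targets. They were 0.50 for ER-associated degradation and 0.49 for translocation. In these lists 0 genes had an unadjusted p under 0.05 (limma), where of all 9419 genes in that fit 17 were higher and 16 lower at it.

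**Figure D4:**
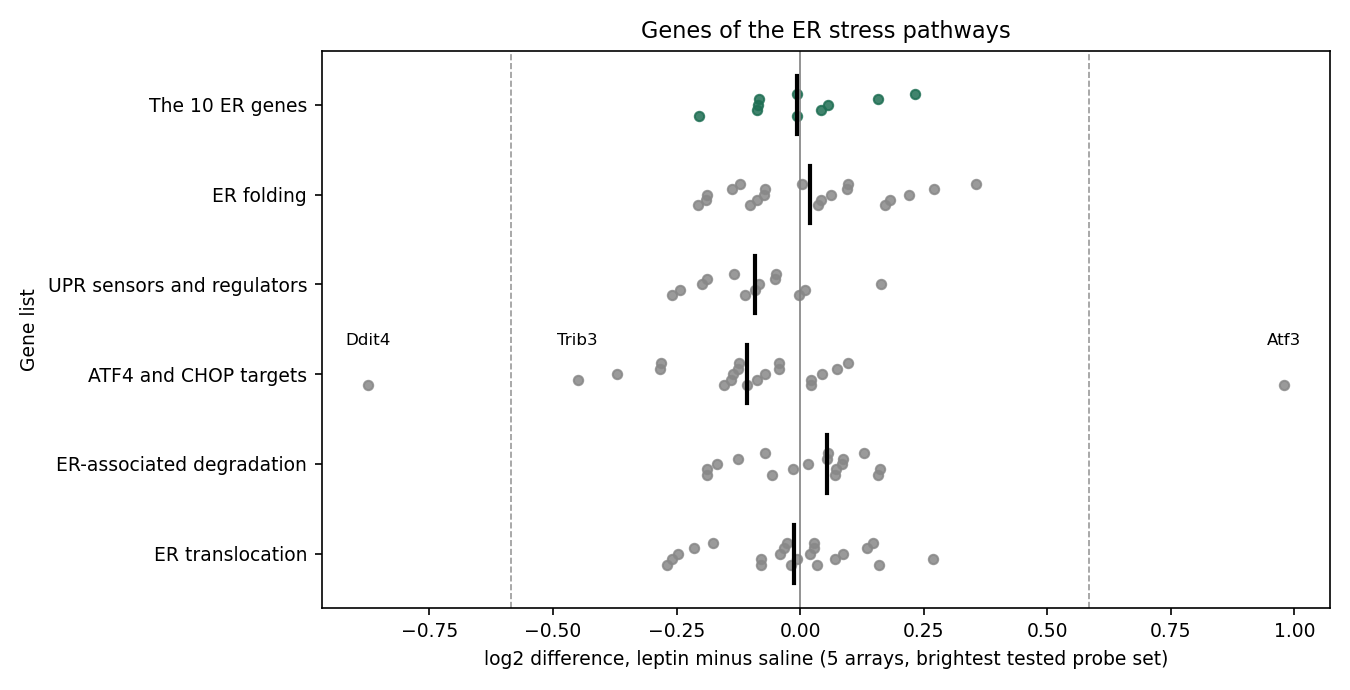
Log2 difference, leptin minus saline, on 5 arrays for each tested gene of the 10 ER genes and of the 5 pathway lists, 1 point per gene, with black bars at the list medians and dashed lines at 1.5-fold. Medians lie between -0.11 and 0.05, and Ddit4 and Atf3 alone lie beyond the dashed lines.

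Genes were also set apart by the promoter element itself. Of the genes tested, 15 had the exact element in a window, 4 of them among the 10 genes. Of the 15, 8 were above and 7 below 0, the median log2 difference was 0.06 and groups did not overlap for 2. An unadjusted p under 0.05 was reached by 0 of the 15 and by 4.28% of all genes tested, so the 0 does not set them apart. The other 7551 tested genes with a window had a median of -0.01, and their groups did not overlap in 19.4%.

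Summed marker levels were set beside these values for 12 cell lists. For 6 of them leptin and saline arrays did not overlap, 1 lower and 5 higher with leptin. Among single genes, 19.9% of all 9365 tested did not overlap in either direction, and no such share was taken for sums. The sum of 6 erythroid markers was 6085 to 7632 with leptin and 13653 and 16435 in saline lungs 2 and 3. All 5 tested erythroid genes were below 0 without overlap, against that 19.9%. Of them 3, the haem enzyme gene Alas2, the mitochondrial iron importer gene Slc25a37 and Bpgm, an enzyme of red cell glycolysis, were lower with leptin (limma adjusted p = 0.0496 for each). These 3 were among the 5 genes that passed of all 9365 tested. On saline replicate 1 the erythroid sum was 1575, below all other arrays. With that array included, or with the replicate number as a block, 0 of the 5 passed (limma). The same held with quantile or median normalization, with a pseudocount of 1, without the filter and without the variance trend.

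The sum of 7 fibroblast markers was 28762 to 30220 with leptin and 19755 and 23152 with saline, with 7 of 7 genes above 0. That of 8 B and plasma cell markers was 4014 to 4856 and 3696 and 3905, with 7 of 7 tested genes above 0. That of 4 smooth muscle markers was 8124 to 9649 and 7265 and 7302, with 4 of 4 above 0 without overlap, against 19.9% of all genes. T cell markers summed to 477.4 to 689.9 with leptin and 338 and 458.7 with saline, and adipocyte markers to 1189 to 1295 and 1039 and 1120. In both lists the genes were mixed, with 3 tested in each, 2 above and 1 below 0. The T cell markers were dim, with a median percentile of intensity of 26.5 to 41.2 on the 5 arrays. In these 5 lists 0 genes passed the adjusted threshold (limma). On saline replicate 1 the T cell sum was 1442 and the adipocyte sum 2551, above all other arrays. The fibroblast, B and plasma cell and smooth muscle sums were 8669, 3603 and 5322 there, below all other arrays. With that array included, 3 of 7 tested B and plasma cell genes and 1 of 3 adipocyte genes were above 0. So were 7 of 7 fibroblast, 4 of 4 smooth muscle and 2 of 3 T cell genes. Alveolar type II markers summed to 119338 to 137991 with leptin and 137940 and 138205 with saline, and club cell markers to 68751 to 76750 and 73738 and 74054. Of these 8 lists, only the adipocyte list had a marker, Ucp1, under the 10th percentile of all values on all 5 arrays. In whole lung RNA, fewer cells of a type and less RNA per cell cannot be told apart, and the part of cell makeup in the values of Pdia3, Xbp1, Ddit4 and Atf3 was not tested.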

How the data were processed

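The authors deposited linear intensity values per probe set, in 1 column for each of the 6 arrays. Trizol extraction and amplification from a T7 primer preceded hybridisation, per the labels' protocols. The program that summarised the probes is not given in the sources used here. With 2% of values trimmed at each end, the mean was 500.10 to 500.14 on every array, so the authors' values carried a scaling to a common mean. For arrays, their number limits the precision.

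Controls (64 probe sets) were dropped. The platform annotation gives 1 symbol to 20380 probe sets, several to 691 and none to 1555. The log2 scale was log2(intensity + 22.0), with the 10th percentile of the whole table as pseudocount, so fold changes of dim probe sets are understated. After dropping the dimmest 30%, limma 3.58.1 (R 4.3.3; lmFit, eBayes with trend, two-sided, leptin minus saline) was fitted to 15839 probe sets, with Benjamini-Hochberg adjustment over all. The fit was tested on simulated data. P-values set each difference against the spread between these samples, which limma draws toward a trend over all probe sets tested.

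The members, gene lists and tests were chosen with earlier results of these data known. All 10 genes are named with every probe set. From each list, genes past the threshold are named, otherwise up to 3 with the smallest unadjusted p under 0.05 and no overlap between groups.

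Deviations of arrays with the same replicate number correlated weakly (r = 0.104 to 0.137 over probe sets for the 3 numbers, and -0.143 to 0.0438 for unequal numbers). The highest value, 0.137, was that of number 1, whose saline array is the one kept apart. Numbers 2 and 3 had 0.109 and 0.104. The labels state no pairing, so these values are its only basis, and the main fit has no block.

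Alternatives were saline replicate 1 included (also with array weights), quantile and median normalization, pseudocounts of 1 and 79.9, filters of 0% and 50%, the block, no variance trend, each array left out, an adjusted threshold of 0.10, the rule in the series' design text (1.5-fold, p under 0.05 by a pooled-variance test, and 4 of 6 pairwise comparisons on 5 arrays), and other ways of joining probe sets.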

Additional observations from a re-analysis of the deposited data

How the results depend on the processing

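In all 17 alternatives run on them, 0 probe sets of the 10 genes passed the adjusted threshold, and the smallest adjusted p lay between 0.710 (replicate block) and 1.00. All changes below are therefore between values that did not pass the test. The 7 calls over all probe sets became 0 with the replicate block, with saline replicate 1 included, without the variance trend or the filter, with a pseudocount of 1 and with quantile or median normalization, 0 to 3 when 1 array was left out, 13 at an adjusted threshold of 0.10 and 78 by the rule of the series' design text. The median log2 difference of the 10 genes' probe sets was 0.58 with saline replicate 1, 0.053 with array weights, 0.024 with quantile normalization, 0.028 with the replicate block, 0.044 for means per gene, and -0.034 to 0.058 when 1 array was left out. The fits with saline replicate 1, with or without array weights, held 19 probe sets, Pdia6 1430983_at being added. So did those without leptin replicate 2, saline replicate 2 or saline replicate 3. With saline replicate 1 the sign turned for Hspa5 1416064_a_at (1.47), Hsp90b1 1438040_a_at (-0.32), Calr 1417606_a_at (0.97), Ddit3 (0.30), Xbp1 1420886_a_at (0.65), 1437223_s_at (0.58) and 1420011_s_at (0.66), and Atf4 1448135_at (0.76) and 1438992_x_at (-0.53), in step with that array's own values. The 2 probe sets closest to 0, Calr 1417606_a_at and Atf4 1448135_at, turned to 0.013 and 0.074 with array weights and to 0.034 and 0.014 with quantile normalization. With the replicate block, which leaves leptin replicate 1 without a partner, Pdia4 stood at 0.0047, Ddit3 at 0.031 and Atf4 1448135_at at 0.037. For every tested probe set of the 10 genes, the block gave the same difference as leaving out leptin replicate 1. The block turns are therefore those of that fit. The cause of the small turns with array weights and quantile normalization was not tested. With 1 array left out, signs were mixed for Hspa5 1427464_s_at (-0.091 to 0.11), Hsp90b1 1438040_a_at (-0.016 to 0.32), Pdia4 (-0.19 to 0.023), Calr 1417606_a_at (-0.051 to 0.039) and 1456170_x_at (-0.044 to 0.42), Ddit3 (-0.18 to 0.031), Xbp1 1437223_s_at (-0.19 to 0.00031) and 1420011_s_at (-0.12 to 0.058), Atf4 1448135_at (-0.28 to 0.27) and 1438992_x_at (-0.051 to 0.22), and Dnajb9 (-0.052 to 0.091). Pdia3, Hsp90b1 1415889_a_at, Pdia6, Calr 1433806_x_at, Hspa5 1416064_a_at, Xbp1 1420886_a_at and Xbp1 1420012_at kept their sign in these. Leaving out a saline array leaves 1, whose spread is taken from the leptin group. With 5 arrays, differences inside the 95% intervals given for each gene are not resolved.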
